A study of Mus musculus with 24 samples.

Results

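Imprinted genes are expressed mainly from the copy inherited from 1 parent, and 35 of them were followed in the neonatal cerebral cortex and blood after prenatal exposure to air pollution particulate matter. The 35 genes are known imprinted genes, from a list drawn up with earlier results of these data known, and each symbol matched 1 of the 48709 genes counted. In the literature 21 of them are expressed from the paternal copy and 9 from the maternal copy, and the copy depends on the tissue or transcript for the other 5. Of the 35, 7 give long non-coding RNAs and 28 give proteins.

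Neonates were of the C57BL/6J strain according to the sample labels, while the methods of the study name the C57BL/6NJ substrain. Their dams breathed nPM, a nano-sized fraction of traffic particulate matter, or filtered air (control) on 3 days of each week, 5 h at a time, between gestational day 2 and birth, and the neonates were 3 to 5 days old by the age label, or day 5 alone by the treatment note and the methods. The labels give a dose of 300 mg/m3. The methods of the study give the same number in micrograms and derive an hourly average in micrograms from it, so the unit on the labels is in doubt. In each tissue 6 nPM and 6 control libraries were made, 3 of each sex. Neonates of 1 sex and exposure came from different litters, but a male and a female may share a litter, and blood and cortex libraries of the same animal cannot be matched from the labels. Total RNA depleted of ribosomal RNA was sequenced, so the counts hold unspliced and nuclear RNA as well as mRNA, and they do not tell the maternal from the paternal copy.

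In an imprinted domain, a DNA methylation mark set in the egg or the sperm makes the parental copies of a gene cluster differ, and 1 control region often governs several neighbours at once. The clusters typically combine protein-coding genes with a long non-coding RNA that is expressed from the opposite copy. Many imprinted genes regulate fetal growth, placental function and neonatal behaviour, and several are known for high expression in the developing brain.

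Cortex libraries held 22301409 to 33804371 counts and blood libraries 13595647 to 21895536. The control female blood library V2 was left out of the comparisons, because a blood library was excluded by the study for its count distribution, without being named, and V2 stood apart. There, 8 markers of meninges and fibroblasts summed to 4179 CPM (counts scaled to library size), and to 10.6 to 38.9 CPM in the other 11 blood libraries. Among those 11, the nPM male library V5 had 44.3 CPM on 8 neuron markers, the 4 libraries of sequencing lane 3 had 7.38 to 11.5 CPM, and the other 6, all of lane 1, had 0.206 to 1.92 CPM. Lane 3 also carried cortex libraries. Of the cortex libraries the control male V14 had 32.9 CPM on 8 choroid plexus markers and the other 11 had 240.0 to 518 CPM. All 8 cortical neuron markers had counts in V14 and in the other cortex libraries, and globin genes took 71.3 to 76.8% of the counts of control blood.

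In control cortex the imprinted genes spanned a wide range of levels per transcript length (RPKM, the CPM divided by the exon length in kilobases). Snrpn, which encodes a small nuclear ribonucleoprotein of neurons, was highest with a median of 185 RPKM (range 174 to 202, n = 6), above every library's value of the next gene. Nnat, a proteolipid of the endoplasmic reticulum, followed with 142 RPKM (136 to 167). Ndn, Rian, Gnas and Meg3 came next with medians of 71.4 to 84.2 RPKM, and neighbours in this order overlapped between libraries. Impact, Peg13 and Peg3 lay between 25.4 and 30.6 RPKM, and 19 more genes between 1.48 and 12.7 RPKM, from Ube3a down to Magel2. Ddc, Airn, Peg12 and Asb4 lay below 1 RPKM, with medians of 0.915, 0.589, 0.33 and 0.208. Dlk1, Rtl1 and Phlda2 were near the limit of detection. Dlk1 had 1 to 6 counts per control library, Rtl1 had 0 counts in 2 of them, and Phlda2, a growth-restraining gene of the placenta, had a count in 1 of 6. The 2 last genes were not tested, because only genes detected in each library compared were tested, which held for 33 of the 35 in cortex.

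**Figure D1:**
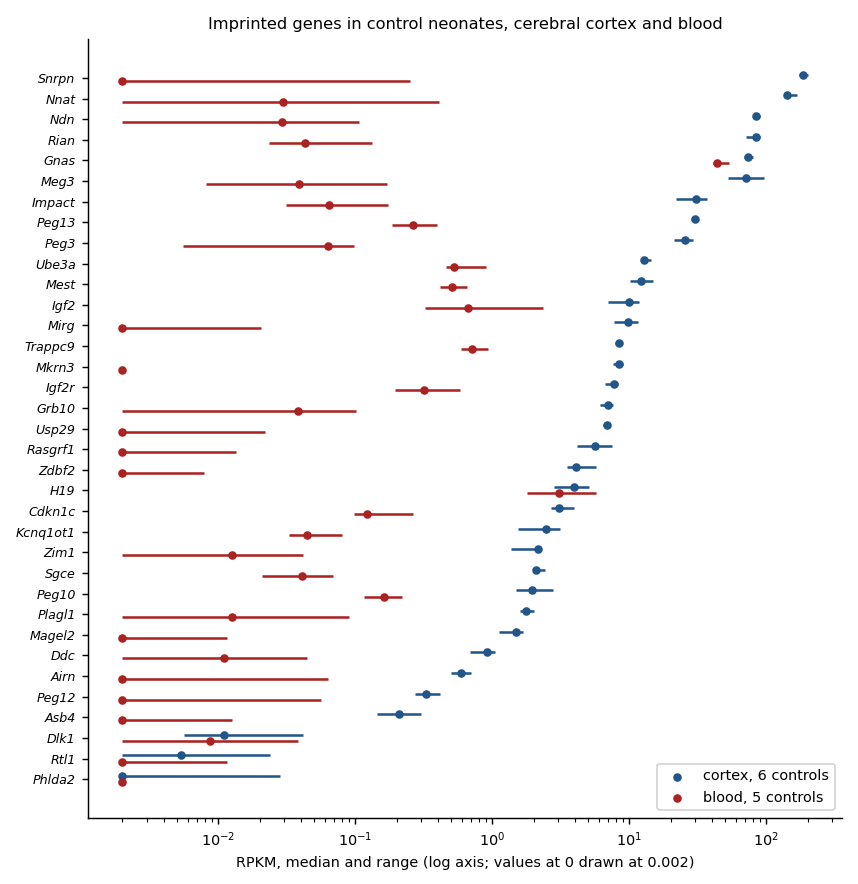
Median and range of RPKM (log axis) for 35 imprinted genes in 6 control cortex libraries (blue) and 5 control blood libraries (red), ordered by the cortex median, with values of 0 drawn at 0.002. Snrpn and Nnat lead in cortex at 185 and 142 RPKM, and in blood only Gnas exceeds 10 RPKM, at a median of 43.8.

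The first comparison asked whether prenatal nPM changed the imprinted genes in the cortex of both sexes together. Of 33 genes tested, 24 were higher and 9 lower in nPM, with a median log2 fold change of 0.06, against -0.002 over all 20857 genes tested. At an unadjusted p under 0.05, in edgeR's quasi-likelihood test with sex and RNA integrity number (RIN) in the model, 10 were higher and 1 was lower. This is 11 of 33, where 5.67% of all genes passed, and 10 higher, where 2.73% of all genes passed as higher. After adjustment over all genes none of the 33 passed (0.0144% of all genes did), and the smallest adjusted p among them was 0.4926. The individual fold changes below are therefore below the threshold for single genes, and the limit of 0.05 on unadjusted p is used only to choose which values are shown. limma voom and DESeq2 gave the same counts, 10 higher, 1 lower and 0 after adjustment. Without the control library V10 or V12, both female, 5 members had an unadjusted p under 0.05, and without the nPM female V9, 7 did. In bulk RNA, fewer cells of a type and less RNA per cell cannot be told apart.

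The gene with the smallest p was Nnat, which is paternally expressed and lies on chromosome 2 at 157560078 to 157562522 (mm10, plus strand), within an intron of Blcap. In TMM-scaled CPM, the CPM after correction of library size, its 3 control females had 253, 265 and 294 and its 3 control males 253, 256 and 305. The nPM females had 316, 403 and 485, and the nPM males 281, 346 and 371. All 3 nPM females exceeded the control females, and in males the lowest nPM library lay within the control range. The difference was 0.43 ± 0.10 on the log2 scale (SE, n = 6 per group, unadjusted edgeR p = 0.000596, adjusted p = 0.4926), and the exact permutation test of the mean scaled CPM gave p = 0.00866, where the smallest possible p is 0.00216 over 924 regroupings.

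Peg12 and Usp29 were the 2 members whose nPM and control groups did not overlap in cortex, with all 6 nPM libraries above all 6 control libraries, which 0.197% of all genes tested showed in either direction. Peg12, an intronless Frat-family gene of the Snrpn-Ndn domain that is linked to Wnt signalling, had 0.739 to 1.09 scaled CPM in controls and 1.11 to 1.60 in nPM, on 23 to 34 and 25 to 53 counts. Its log2 fold change was 0.63 ± 0.17 (SE, edgeR unadjusted p = 0.00206, adjusted p = 0.635). Usp29, a ubiquitin peptidase read from the same region as Peg3 in the opposite direction, separated on a much smaller difference: controls had 119 to 127 scaled CPM (median 125) and nPM libraries 128 to 135 (median 132). This is a log2 fold change of 0.08 ± 0.03 (edgeR unadjusted p = 0.0281, adjusted p = 0.862). Both had the smallest possible p of the exact permutation test, 0.00216. Groups of 6 that do not overlap always give this p, so it adds nothing to the separation itself.

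**Figure D2:**
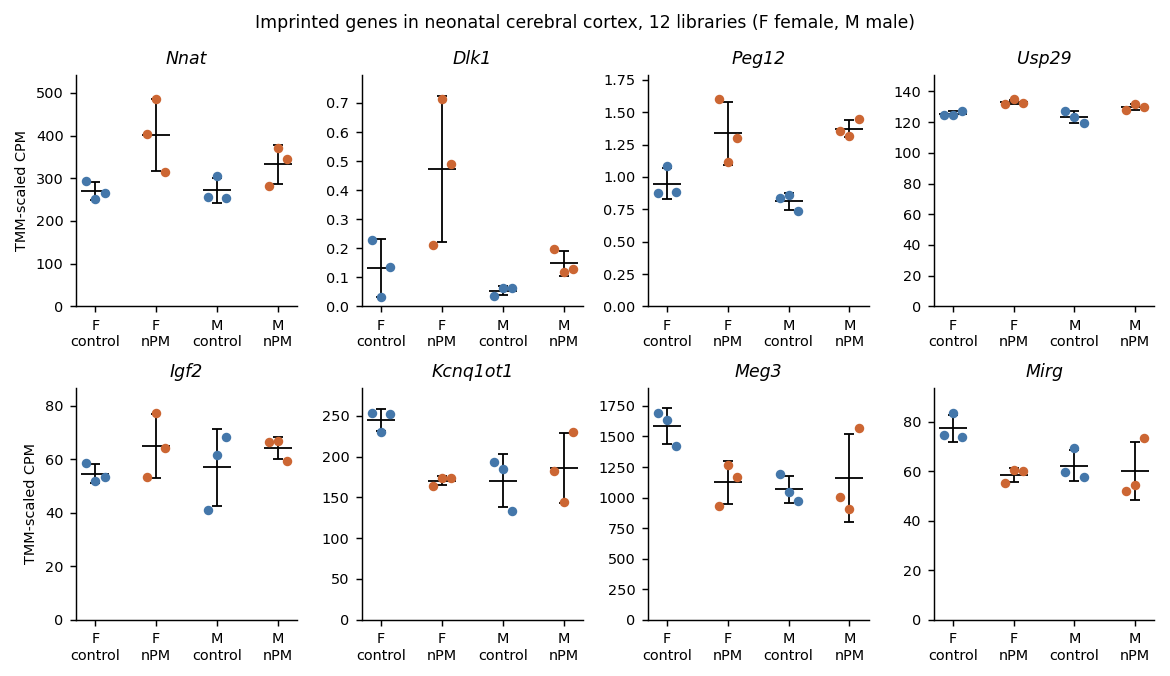
TMM-scaled CPM of 8 imprinted genes in the 12 cortex libraries, by sex (F, M) and exposure, with points for libraries and bars for mean and SD (n = 3). Peg12 and Usp29 separate nPM (orange) from control (blue) in both sexes, whereas Kcnq1ot1, Meg3 and Mirg are lower in nPM in the females, whose control libraries are the highest group.

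The domains of fetal growth control were measured as follows. Igf2, the insulin-like growth factor that drives fetal growth from the paternal copy, had 51.7, 53.5 and 58.7 scaled CPM in control females and 40.9, 61.5 and 68.4 in control males. Its nPM values were 53.3, 64.1 and 77.5 in females and 59.5, 66.6 and 66.9 in males. The groups overlapped, at a log2 fold change of 0.19 ± 0.10 (edgeR unadjusted p = 0.069), and the lowest value came from V14, the library with few choroid plexus counts. Over the 8 choroid plexus markers, a tissue that expresses Igf2, 7 were higher in nPM with a median log2 fold change of 0.35 and none at an unadjusted p under 0.05. Their sum ranged from 32.9 to 402 CPM in controls and from 240.0 to 518 CPM in nPM libraries. The 8 markers of meninges and fibroblasts, which also express Igf2, had 6 higher with a median of 0.24, and sums of 117 to 316 CPM in controls and 133 to 203 CPM in nPM. The part of these tissues in the Igf2 values was not tested.

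H19, the maternal non-coding RNA next to Igf2, had 6.71 to 11.9 scaled CPM in controls and 9.09 to 11.9 in nPM, a log2 fold change of 0.20 ± 0.11 (edgeR unadjusted p = 0.0907). Igf2r, the maternally expressed receptor that clears IGF2, and its antisense RNA Airn both differed by 0.03, with SEs of 0.05 and 0.15. Cdkn1c, the cyclin-dependent kinase inhibitor p57 that acts against Igf2 in growth, had 5.60 to 7.995 scaled CPM in controls and 6.82 to 9.48 in nPM, a log2 fold change of 0.25 ± 0.11 (edgeR unadjusted p = 0.037). Plagl1, a zinc finger transcription factor, had 12.5 to 15.7 in controls and 14.3 to 17.6 in nPM, a log2 fold change of 0.17 ± 0.07 (edgeR unadjusted p = 0.0206). For Cdkn1c and Plagl1 all 6 nPM values exceeded the control median. Grb10, an adaptor that restrains insulin and IGF signalling, and its neighbour Ddc, an enzyme of monoamine synthesis, had log2 fold changes of 0.04 ± 0.05 and 0.16 ± 0.12.

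In the Dlk1-Meg3 domain on chromosome 12 the protein-coding gene tested and the non-coding RNAs lay on opposite sides of 0 in both sexes together. Fitted in males alone, all 4 members tested were higher in nPM, with a median log2 fold change of 0.19. In females alone 1 was higher and 3 were lower, with a median of -0.28. The values that follow are for both sexes together. Dlk1, a paternally expressed transmembrane relative of the Notch ligands, had 1, 1, 2, 2, 4 and 6 counts in the controls and 4, 4, 6, 7, 14 and 16 in nPM. Summed, these were 51 counts in nPM and 16 in controls, a ratio of 3.18 after division by the summed library totals with an exact 95% interval of 1.79 to 5.98 that covers counting error only. The fitted log2 fold change was 1.53 ± 0.38 (edgeR unadjusted p = 0.00114, adjusted p = 0.566), on counts close to the limit of 3 counts per library that a count of 0 allows. The exact permutation test of its mean scaled CPM gave p = 0.0346. Of 15 markers of the hypothalamus, where Dlk1 is expressed, 4 were tested, 2 higher and 2 lower, with thyrotropin-releasing hormone (Trh) lower at -0.33 ± 0.10 (edgeR unadjusted p = 0.00395), and the 15 summed to 8.25 to 10.7 CPM in controls and 7.69 to 9.60 CPM in nPM. The maternal non-coding RNAs Meg3, Rian and Mirg had log2 fold changes of -0.19 ± 0.14, -0.08 ± 0.06 and -0.23 ± 0.09, with unadjusted edgeR p-values of 0.179, 0.207 and 0.0222. Mirg was the single member lower at an unadjusted edgeR p under 0.05, and its exact permutation p was 0.0714. Of 8 cortical neuron markers 7 were lower in nPM, with a median log2 fold change of -0.07, and their sum was 939 to 1056 CPM in controls and 861 to 950.1 CPM in nPM. Fitted within females or within males, 3 of these 8 were higher and 5 lower. Of 8 markers of neurons of any region, 5 were higher and 3 lower in both sexes together, with a median of 0.01. Their sum was 7843 to 9036 CPM in controls and 8172 to 8593 CPM in nPM. Whether neuron content had a part in the non-coding RNAs was not tested.

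Of the 3 genes of the Peg10 domain, Peg10, a retrotransposon-derived gene needed for the placenta, had a log2 fold change of 0.26 ± 0.10 (edgeR unadjusted p = 0.0205). Its neighbour Asb4, an ankyrin and SOCS box gene, had 0.47 ± 0.21 (edgeR unadjusted p = 0.0379) on 16 to 31 counts in controls and 18 to 50 in nPM, and Sgce, which encodes epsilon-sarcoglycan, had 0.03 ± 0.06. For Peg10 and Asb4 the groups overlapped, and the exact permutation test of scaled CPM without covariates gave p = 0.206 and p = 0.106. Zdbf2, a zinc finger gene linked to neonatal feeding and growth, was at 45.1 to 70.1 scaled CPM in controls and 53.2 to 67.1 in nPM, a log2 fold change of 0.15 ± 0.06 (edgeR unadjusted p = 0.0286, exact permutation p = 0.221).

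The Snrpn-Ndn domain of chromosome 7, whose human counterpart is the Prader-Willi and Angelman region, had 6 members. Ndn, a MAGE-family gene of postmitotic neurons, had 289 to 337 scaled CPM in controls and 312 to 378 in nPM, a log2 fold change of 0.12 ± 0.05 (edgeR unadjusted p = 0.0435, exact permutation p = 0.0455). Peg12 is given above. Magel2, Mkrn3, Snrpn and Ube3a, whose products include a MAGE protein and 2 ubiquitin ligases, had log2 fold changes between -0.03 and 0.10, with unadjusted edgeR p-values from 0.142 to 0.926. The remaining members, Peg3, Zim1, Mest, Gnas, Impact, Rasgrf1, Peg13, Trappc9 and Kcnq1ot1, had log2 fold changes between -0.20 and 0.17 and unadjusted p-values of at least 0.141.

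**Figure D3:**
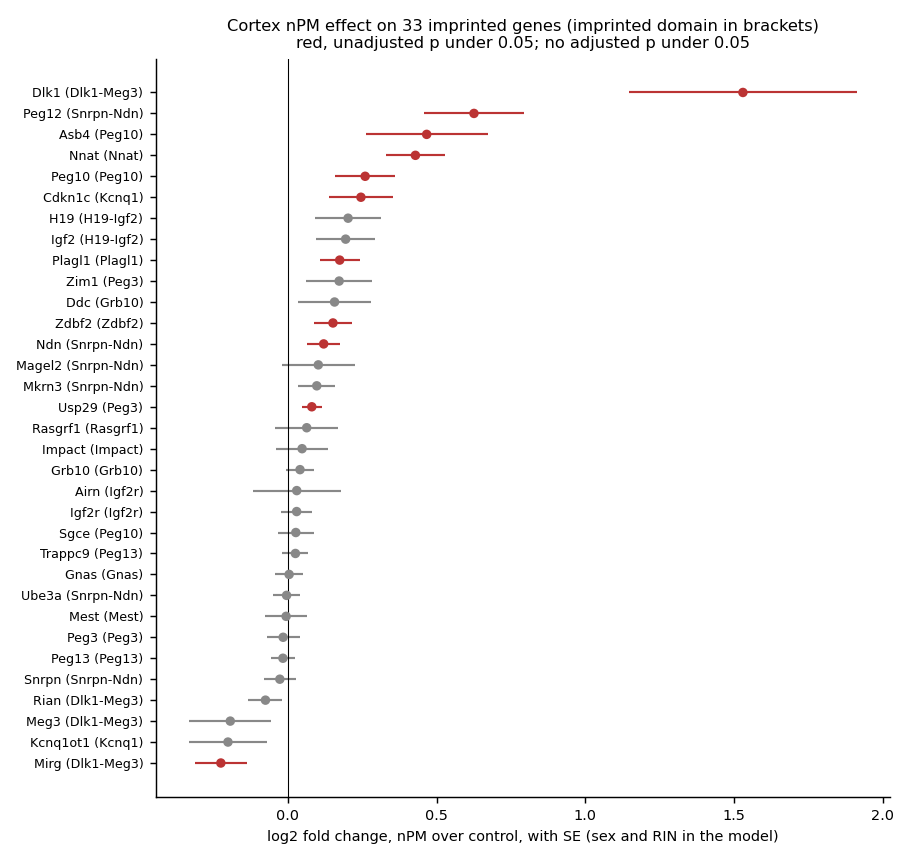
Log2 fold change of nPM over control with SE for 33 imprinted genes in 12 cortex libraries, ordered by size, with the imprinted domain in brackets. In red, 10 genes to the right and Mirg to the left had an unadjusted edgeR p under 0.05, and none had an adjusted p under 0.05.

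By kind of RNA, in both sexes together, 22 of 26 protein-coding members tested were higher in nPM with a median log2 fold change of 0.10. Of 7 non-coding members 2 were higher, with a median of -0.08. In females 19 of 26 coding and 2 of 7 non-coding members were higher, with medians of 0.09 and -0.20. In males 21 of 26 and 6 of 7 were higher, with medians of 0.16 and 0.12. By parental copy, in both sexes together, 15 of 20 paternally expressed genes were higher with a median of 0.09, and 5 of 8 maternally expressed genes with a median of 0.10. Of all genes tested, 10197 of 20857 were higher in both sexes together, 10776 of 21731 in females and 11011 of 21670 in males. Shares over all coding and all non-coding genes were not computed, and a difference between these classes was not tested.

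The sexes were then fitted apart, as the study did. In the 6 female cortex libraries 10 of 33 members had an unadjusted edgeR p under 0.05 (15.4% of all genes), and 4 had an adjusted p under 0.05 (1.11% of all genes). Of the 4, 3 were long non-coding RNAs that fell in nPM and 1 was Nnat, which rose. limma voom called 5 and DESeq2 6 after adjustment. Without the nPM female V11 or the control female V12, Kcnq1ot1 alone kept an adjusted p under 0.05, and without the control female V19, Kcnq1ot1 and Mirg did.

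Kcnq1ot1 is a paternal RNA of 84395 bases that runs antisense through Kcnq1, on chromosome 7 at 143212155 to 143296549 (mm10, minus strand), and is known to silence its neighbours, Cdkn1c and Phlda2 among them. Whether reads were counted by strand is not stated, and Kcnq1 itself was at most 1.34 scaled CPM in these females. It had 229.9, 252 and 254 scaled CPM in control females and 164, 174 and 174 in nPM females. Every nPM female lay below every control female. The log2 fold change was -0.52 ± 0.05 (SE, n = 3 per group, edgeR adjusted p = 0.00175). Cdkn1c was at 5.95, 6.39 and 6.95 scaled CPM in control females and at 7.65, 7.67 and 9.48 in nPM females (0.36 ± 0.13, edgeR unadjusted p = 0.0182, adjusted p = 0.215). In males the log2 fold changes were both above 0, at 0.28 ± 0.15 for Kcnq1ot1 and 0.23 ± 0.19 for Cdkn1c. Whether Kcnq1ot1 had a part in the Cdkn1c values was not tested.

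Meg3, the maternal RNA at the start of the Dlk1-Meg3 non-coding transcripts (chromosome 12, 109541001 to 109571726, plus strand), had 1422, 1638 and 1695 scaled CPM in control females and 931, 1171 and 1267 in nPM females. Mirg, which is the host of a microRNA cluster further along the same strand (109729764 to 109749460), had 73.8, 74.6 and 83.6 in control females and 55.2, 59.9 and 60.4 in nPM females. Both RNAs separated the exposures without overlap. Meg3 fell by 0.45 ± 0.07 on the log2 scale (edgeR adjusted p = 0.0123) and Mirg by 0.40 ± 0.06 (edgeR adjusted p = 0.013). Rian, the snoRNA host between them, had a log2 fold change of -0.15 ± 0.06 (edgeR unadjusted p = 0.0215, adjusted p = 0.229).

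Nnat rose by 0.60 ± 0.11 in females (edgeR adjusted p = 0.021), on the values given above. Without any 1 of V10, V11, V12, V19 or V20 it did not pass, at log2 fold changes of 0.42 to 0.66 and edgeR adjusted p-values of 0.0788 to 0.147. The other female differences at an unadjusted edgeR p under 0.05 were Ndn (0.25 ± 0.06, adjusted p = 0.0552), Igf2 (0.29 ± 0.07, adjusted p = 0.068), Dlk1 (1.95 ± 0.53, adjusted p = 0.105) and H19 (0.42 ± 0.14, adjusted p = 0.177). Within females the exposures did not overlap for 12 of 33 members, where 21.1% of all genes tested separated. These were H19, Cdkn1c, Usp29, Ndn, Peg12, Nnat, Gnas and Trappc9, higher in nPM, and Kcnq1ot1, Meg3, Rian and Mirg, lower in nPM.

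The RNAs that fell are shown here by their start sites, and Nnat beside them, because these are the 4 members called in females. The sequences are the 300 bases from 250 before to 50 after the RefSeq start on GRCm38.p6 (mm10), 5′ to 3′ on the gene's strand. The RefSeq start of Mirg lies inside the gene as counted, and its promoter is not shown. Capitals mark the hexamer TGCCGC or its complement GCGGCA, the core of the sites bound by the imprint-protecting factor ZFP57 when methylated.
Kcnq1ot1, chr7:143296498-143296797, minus strand: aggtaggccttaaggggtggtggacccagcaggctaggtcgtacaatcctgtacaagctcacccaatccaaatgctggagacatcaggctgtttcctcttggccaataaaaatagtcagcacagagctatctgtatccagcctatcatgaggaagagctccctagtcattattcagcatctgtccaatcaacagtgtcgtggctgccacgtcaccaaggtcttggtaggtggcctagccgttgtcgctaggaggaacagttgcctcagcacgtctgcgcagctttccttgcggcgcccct
Meg3, chr12:109540746-109541045, plus strand: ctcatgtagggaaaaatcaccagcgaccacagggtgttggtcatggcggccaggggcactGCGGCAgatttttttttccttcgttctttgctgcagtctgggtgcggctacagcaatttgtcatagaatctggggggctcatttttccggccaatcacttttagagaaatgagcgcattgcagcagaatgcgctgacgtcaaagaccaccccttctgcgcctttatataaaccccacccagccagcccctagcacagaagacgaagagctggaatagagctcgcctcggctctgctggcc
Nnat, chr2:157559828-157560127, plus strand: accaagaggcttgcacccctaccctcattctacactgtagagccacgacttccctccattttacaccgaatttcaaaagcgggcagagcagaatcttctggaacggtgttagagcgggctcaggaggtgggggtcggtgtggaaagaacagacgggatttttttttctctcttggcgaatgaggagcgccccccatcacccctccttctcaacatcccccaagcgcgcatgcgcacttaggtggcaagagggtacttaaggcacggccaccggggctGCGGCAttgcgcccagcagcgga

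The hexamer was found once in the Meg3 window, once in the Nnat window and not in that of Kcnq1ot1. It was in 6 of the 27 imprinted genes with a RefSeq start window outside the regions not printed here (22.2%) and in 11.6% of all 32851 windows of the same length. The matches are letters and not measured sites, and the windows cover start sites only. They held 9, 13 and 17 CpG dinucleotides, against a median of 13 in the 27 and of 7 in all windows.

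Mirg carries 14 microRNA genes with 26 mature sequences in RefSeq, and the H19 RNA carries 1 gene with 2. Mature microRNAs were not measured in these libraries, so the fall of Mirg in females is that of the host RNA. The sequences shown are examples of what these host RNAs carry, with the seed (bases 2 to 8) in capitals, and of the 26 in Mirg only miR-453 and miR-496a-5p share a seed.
miR-453 (Mirg): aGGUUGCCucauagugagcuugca
miR-496a-5p (Mirg): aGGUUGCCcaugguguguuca
miR-134-5p (Mirg): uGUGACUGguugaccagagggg
miR-382-5p (Mirg): gAAGUUGUucgugguggauucg
miR-675-5p (H19): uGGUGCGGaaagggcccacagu
miR-675-3p (H19): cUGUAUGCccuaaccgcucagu

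In the 6 male cortex libraries 5 of 33 members had an unadjusted edgeR p under 0.05 (4.51% of all genes), all higher in nPM, and none passed adjustment by edgeR, limma voom or DESeq2. Without the nPM male V23, 2 had an unadjusted p under 0.05. The 5 were Nnat (0.39 ± 0.11, edgeR unadjusted p = 0.00688), Zdbf2 (0.29 ± 0.09, unadjusted p = 0.0092), Peg12 (0.81 ± 0.31, unadjusted p = 0.0276), Peg10 (0.46 ± 0.18, unadjusted p = 0.033) and Mest (0.21 ± 0.09, unadjusted p = 0.0448), each with an edgeR adjusted p of 0.962. Mest encodes a hydrolase-fold protein of the mesoderm. Male Zdbf2 values were 45.1, 45.2 and 51.2 scaled CPM in controls and 53.2, 55.7 and 61.2 in nPM, without overlap. The exposures did not overlap in males for 8 of 33 members, where 9.2% of all genes separated, with Dlk1, Usp29, Peg10, Plagl1, Grb10, Peg12 and Zdbf2 higher and Gnas lower in nPM.

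In males Kcnq1ot1, Meg3 and Mirg had log2 fold changes of 0.28 ± 0.15, 0.25 ± 0.16 and 0.12 ± 0.08, with unadjusted edgeR p-values of 0.0989 to 0.149. Kcnq1ot1 had 133, 185 and 193 scaled CPM in control males and 144, 183 and 229.9 in nPM males, and Meg3 had 972, 1044 and 1190 and then 906, 1004 and 1568. The groups overlapped, and 1 nPM male, V23, was the highest male library for both. Control females were above control males in every library for Kcnq1ot1, Meg3 and Mirg, and the nPM females lay within the range of the males.

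The difference between the sexes was tested as an nPM-by-sex term, and 5 of 33 members had an unadjusted edgeR p under 0.05, where 9.68% of all genes did. None passed adjustment, by edgeR, limma voom or DESeq2, and without the control female V12 the count was 3. The term, male minus female log2 fold change, was 0.69 ± 0.21 for Kcnq1ot1 (edgeR unadjusted p = 0.00502, adjusted p = 0.362), 0.59 ± 0.24 for Meg3 (unadjusted p = 0.0292, adjusted p = 0.472) and 0.41 ± 0.16 for Mirg (unadjusted p = 0.02, adjusted p = 0.454). It was -0.29 ± 0.09 for Ndn (unadjusted p = 0.00473, adjusted p = 0.362) and -0.22 ± 0.08 for Gnas (unadjusted p = 0.017, adjusted p = 0.44). Gnas, the stimulatory G protein subunit, had 771, 779 and 804 scaled CPM in control females against 831, 852 and 857 in nPM females, and 838, 889.9 and 914 in control males against 809, 816 and 834 in nPM males, so that the exposures separated in opposite directions in the sexes.

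**Figure D4:**
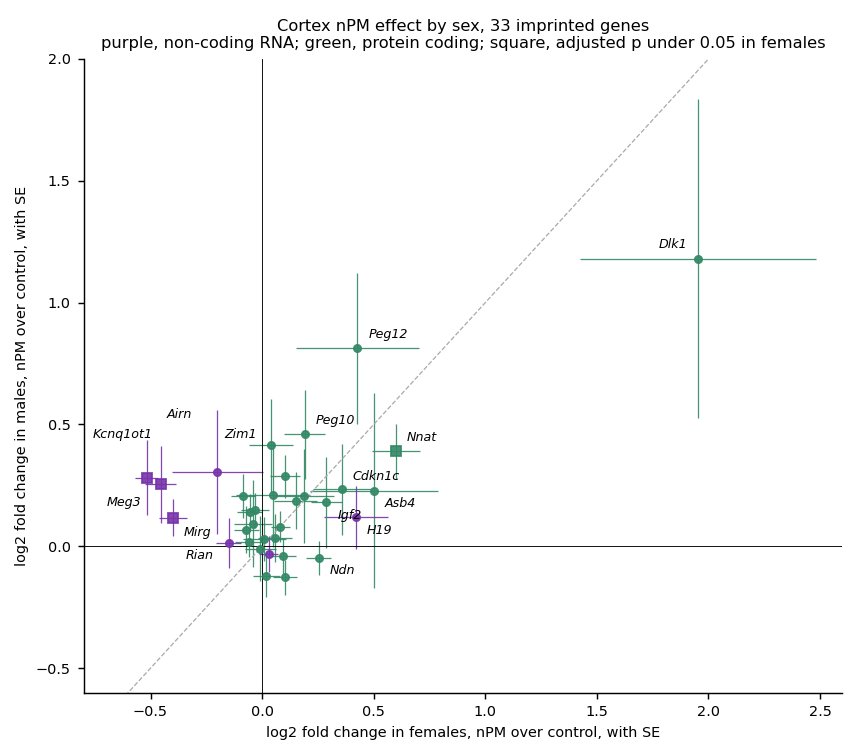
Log2 fold change of nPM over control in males (vertical axis) against females (horizontal axis) with SE for 33 imprinted genes in cortex, with the dashed line marking equal values. Nnat and Dlk1 lie above 0 in both sexes, and Kcnq1ot1, Meg3 and Mirg lie at -0.52 to -0.40 in females and above 0 in males.

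The share of counts on genes of the annotation classes sense intronic, which includes Peg13, and TEC was followed as a proxy of unspliced RNA. Splicing itself was not measured. This intronic percentage was 0.42 to 0.46% in control females and 0.313 to 0.339% in nPM females, where the 3 RNAs fell. In males it was 0.258 to 0.386% in controls and 0.304 to 0.414% in nPM, the highest male being V23. Malat1, an abundant nuclear RNA that is not imprinted, fell in the female cortex by 0.46 ± 0.06 on the log2 scale (edgeR adjusted p = 0.00403), and the control female range was 4743 to 5147 scaled CPM against 3398 to 3725 in nPM females. Its nPM-by-sex term was 0.56 ± 0.17 (edgeR unadjusted p = 0.00484, adjusted p = 0.362). Neat1, another nuclear RNA, had a female log2 fold change of -0.45 ± 0.11 (edgeR unadjusted p = 0.00124, adjusted p = 0.0689). The nPM-by-sex term of Neat1 was 0.37 ± 0.18 (edgeR unadjusted p = 0.0626, adjusted p = 0.547). RIN spanned 9.4 to 9.9 in all cortex libraries.

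When the intronic percentage was added to the model, an alternative chosen after seeing the data, the nPM-by-sex terms became 0.05 for Kcnq1ot1 (edgeR unadjusted p = 0.629), -0.06 for Meg3 (unadjusted p = 0.803) and 0.12 for Mirg (unadjusted p = 0.507). Those of Ndn and Gnas became -0.21 (edgeR unadjusted p = 0.0742) and -0.16 (unadjusted p = 0.132). In the model of both sexes 4 of the 11 genes lost an unadjusted p under 0.05: Mirg (-0.12, edgeR unadjusted p = 0.0945), Cdkn1c (0.23, unadjusted p = 0.0707), Asb4 (0.33, unadjusted p = 0.154) and Ndn (0.06, unadjusted p = 0.205). The other 7, Nnat (0.40, unadjusted p = 0.00247), Peg12 (0.69, unadjusted p = 0.00165), Dlk1 (1.43, unadjusted p = 0.00933), Zdbf2 (0.22, unadjusted p = 0.000588), Peg10, Plagl1 and Usp29, kept an unadjusted edgeR p under 0.05. In the 6 female libraries the percentage did not overlap between exposures, so the fit could not tell it from nPM, and none of the 4 called genes kept an adjusted p under 0.05 with it. Their log2 fold changes there were 0.65 for Nnat, -1.46 for Meg3, -1.54 for Mirg and 0.16 for Kcnq1ot1. In that fit H19 had 3.15 and Dlk1 9.29, against 0.42 and 1.95 without the percentage. None of these values is read as an nPM effect. Whether unspliced or nuclear RNA had a part in the values of the imprinted genes was not tested.

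**Figure D5:**
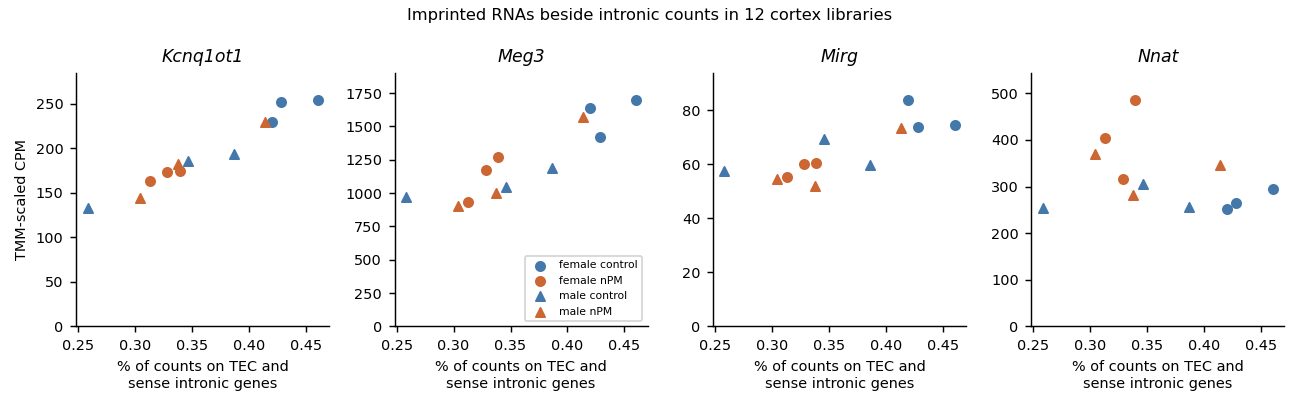
TMM-scaled CPM of Kcnq1ot1, Meg3, Mirg and Nnat against the percentage of counts on TEC and sense intronic genes in 12 cortex libraries, with circles for females, triangles for males, blue for control and orange for nPM. The 3 control females sit at 0.42 to 0.46% with the highest Kcnq1ot1, at 229.9 to 254 scaled CPM, while the highest Nnat value, 485 scaled CPM, is at 0.339%.

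Neighbours within a domain were compared across the 12 cortex libraries for 6 pairs, as log2 scaled CPM with permutation p-values adjusted over the 6. No pair from different domains was compared, so whether neighbours went together more than other genes was not tested. Meg3 and Mirg moved together (Pearson r = 0.865, adjusted permutation p = 0.00342, Spearman rho = 0.895, adjusted permutation p = 0.00132), with r = 0.812 within controls and r = 0.929 within nPM. Every control female lay above every control male for both genes, and r within controls includes that difference. Without the 2 libraries farthest from the Meg3 median, V10 and V12, r was 0.787 (adjusted permutation p = 0.0478). Meg3 with Rian gave r = 0.694 (rho = 0.692) and Rian with Mirg r = 0.693 (rho = 0.685), each with an adjusted permutation p of 0.0287 for r and 0.0353 for rho, and without 2 libraries r was 0.690 and 0.561, with adjusted permutation p-values of 0.0832 and 0.181. Igf2 with H19 (r = 0.308, rho = 0.252), Sgce with Peg10 (r = 0.018, rho = 0.182) and Ndn with Magel2 (r = 0.217, rho = 0.0909) gave permutation p-values of at least 0.321 for r and 0.432 for rho, and adjusted values of at least 0.481.

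Imprinted genes that were not among the 35 were followed as a second list. Of 36 such genes 31 were tested in cortex, 20 higher and 11 lower in nPM, with a median log2 fold change of 0.04. At an unadjusted edgeR p under 0.05, 1 was higher and 2 were lower. The 1 was Dio3, the deiodinase at the far end of the Dlk1-Meg3 domain (1.30 ± 0.47, edgeR unadjusted p = 0.0149), and the 2 were the potassium channel gene Kcnk9 (-0.20 ± 0.08, unadjusted p = 0.0289) and Cobl (-0.14 ± 0.06, unadjusted p = 0.035). None of 24 genes of imprint maintenance and DNA methylation passed the same limit, with 14 higher and 10 lower and a median of 0.01. Of 15 genes of the insulin-like growth factor axis, a list that includes receptors and binding proteins, 2 passed, both higher: Irs4, an adaptor of the insulin and IGF receptors (1.11 ± 0.30, edgeR unadjusted p = 0.00194), and Igfbp3, an IGF binding protein (0.23 ± 0.10, unadjusted p = 0.0342). In both sexes together none of the genes of the 3 lists passed adjustment, and the share of all genes with an unadjusted p under 0.05 was the 5.67% given above. In females alone 8 of 32 other imprinted genes, 4 of 24 of the maintenance list and 4 of 15 of the growth factor axis had an unadjusted edgeR p under 0.05, against the 15.4% of all genes given above, and 1, 0 and 1 passed adjustment.

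In blood 15 of the 35 imprinted genes had at least 1 count in each of the 11 libraries used, and 2 of 15 had an unadjusted edgeR p under 0.05, where 3.11% of all genes did. None passed adjustment by edgeR, limma voom or DESeq2, and by edgeR 0 of 9977 genes did. Kcnq1ot1 had 3.19 and 5.26 scaled CPM in the 2 control females and 3.82, 4.004 and 4.25 in control males. In nPM it had 3.999, 5.02 and 6.26 in females and 5.22, 5.87 and 9.43 in males, the last in V5. Its log2 fold change was 0.56 ± 0.22 (edgeR unadjusted p = 0.0184, adjusted p = 1.00, exact permutation p = 0.0498). Impact, a regulator of translation under amino acid shortage, rested on 2 to 12 counts in controls and 4 to 31 in nPM, with a log2 fold change of 0.98 ± 0.43 (edgeR unadjusted p = 0.0363). No member separated the exposures in blood, where 0.221% of all genes did. Without V1, or without V5, 0 members had an unadjusted p under 0.05, and without V17, V6 or V8, 1 did.

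The nPM-by-sex term in blood had an unadjusted edgeR p under 0.05 for 2 of 15 members, where 10.7% of all genes did. Peg10 had -1.66 ± 0.62 (edgeR unadjusted p = 0.0153) and Peg3, a zinc finger gene, had 2.97 ± 1.16 (unadjusted p = 0.0191). Neither passed adjustment (edgeR adjusted p = 0.452 for both), and limma voom and DESeq2 each gave 1 member under 0.05 unadjusted. Leaving out single libraries moved the count between 1 and 5, with 1 without V17, V3 or V8, 4 without V21 or V7 and 5 without V18. Without V5, which held 139 counts of Peg3 where the other 10 libraries had 1 to 31, the Peg3 term was 1.58 (edgeR unadjusted p = 0.116). V5 also held 1025 counts of Meg3 and 287 of Rian, against 2 to 62 and 2 to 47 in the other 10, together with its neuron markers. Snrpn, the highest member in cortex, had 6 to 12 counts in the 4 libraries of lane 3, 47 in V5 and 0 to 2 in the other 6 lane 1 libraries, and Nnat had 4 to 17 in lane 3, 26 in V5 and 0 to 5 in the rest. The part of neural RNA in these counts was not tested.

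Cortex and blood were compared in the control neonates, 6 cortex and 5 blood libraries. Of 16 members tested, 15 differed at an unadjusted edgeR p under 0.05 (86.7% of all genes) and 14 after adjustment (86.2% of all genes), so a difference between the tissues was the rule for any gene. The scale of this comparison depended on how library size was corrected. The median gene had a log2 fold change of 0.24 with TMM, 4.66 on library totals and 2.75 on totals without globin genes, the last 2 being alternatives chosen after seeing the data, and members are best read against these medians.

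Rian, Meg3, Peg3, Impact and Peg13 were far higher in cortex, at log2 fold changes of 5.98 ± 0.37, 5.61 ± 0.48, 4.56 ± 0.27, 4.28 ± 0.26 and 2.63 ± 0.16 (edgeR adjusted p from 7.27e-11 to 1.09e-08), and they were above the median gene on each of the 3 scales. At the other end H19 and Gnas stood well below the median gene. H19 had a log2 fold change of -4.14 ± 0.30 with TMM (edgeR adjusted p = 1.06e-09), -1.56 on totals without globin and 0.42 on library totals, where its direction flipped. Gnas had -3.42 ± 0.13 (adjusted p = 3.01e-13), -0.88 and 1.07 on the same scales, so it flipped too. Igf2 (-1.13 ± 0.42, adjusted p = 0.0206), Trappc9 (-0.62 ± 0.10, adjusted p = 2.78e-05) and Peg10 (-0.53 ± 0.25, adjusted p = 0.0557) were lower in cortex with TMM and higher on both other scales. Read against the median gene, Igf2, Trappc9 and Peg10 lay below it on each of the 3 scales. Igf2 did not pass by limma voom (-0.52, adjusted p = 0.252), nor in edgeR without the control blood library V17 (-0.72, adjusted p = 0.158) or V6 (-0.56, adjusted p = 0.185). In counts, Gnas was the leading imprinted gene of blood, with 7105 to 13119 per control library and a median of 43.8 RPKM. H19, at 58 to 273 counts, had a median of 3.08 RPKM, within the 2.84 to 5.04 RPKM of control cortex.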

How the data were processed

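Counts per gene were deposited by the authors as whole numbers, from total RNA libraries depleted of ribosomal RNA, aligned with HISAT2 to mm10 and counted with featureCounts 1.5.0-p3 on Gencode genes, per the labels and the methods of the study. The strand setting and the reads left uncounted are not given in the sources used here, so overlapping genes (Kcnq1ot1 and Kcnq1, Igf2r and Airn, Ube3a and its antisense RNA, Snrpn and Snurf, Nnat and Blcap, Peg13 and Trappc9) may share reads. All 24 count columns matched a labelled library, and 23 were used, with V2 added only in alternatives. Replicates are separate neonates, and the depth of each library limits genes under 3 counts, 0.0887 to 0.135 CPM in cortex and 0.137 to 0.221 CPM in blood. Intervals and this floor cover counting error only.

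The counts were tested with edgeR 4.0.16 (R 4.3.3) by the quasi-likelihood F test after TMM scaling, for genes whose count was 1 or more throughout the libraries compared. Models held sex and RIN, RIN alone within a sex, or sex alone between tissues, and p-values were adjusted by Benjamini-Hochberg over all genes tested. A prior count of 0.5 was used, and an SE is the size of the log2 fold change divided by the square root of F. Single genes were also tested by a two-sided exact permutation test of mean scaled CPM, and pairs with 100000 permutations. RPKM used the exon length of each gene. The fits were tested on simulated counts. Every imprinted gene is given by its level, and a fold change is given for those with an unadjusted p under 0.05, for the H19-Igf2 and Dlk1-Meg3 members, for the 5 largest and 5 smallest values between tissues, and by range otherwise. Fold changes of Igf2r, Airn, Grb10, Ddc and Sgce in cortex, and of Cdkn1c in male cortex, were added beside their neighbours after their values were seen. Malat1, Neat1 and the intronic percentage were also chosen after seeing the data. The members, lists and tests were chosen with earlier results of these data known. Alternatives were limma 3.58.1 (voom), DESeq2 1.42.0, RLE factors, other count filters, other covariates, and each library left out in turn.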

Additional observations from a re-analysis of the deposited data

Results flagged for a closer look

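In 96 groups of scaled CPM values of the imprinted genes, 9 had a highest or lowest library far from the rest, where chance gives about 1 in 20. In cortex these were Zim1, a maternally expressed zinc finger gene, at 11 in control V24 (next value 16.3), Cdkn1c at 9.48 in nPM V20 (next 7.69), Ube3a at 253 in nPM V20 (next 265) and Peg13 at 128 in nPM V13 (next 141). In nPM blood they were H19 at 20.8 in V7 (next 7.36), Peg10 at 3.30 in V3 (next 1.84), and 3 genes in V5: Meg3 at 47.8 (next 1.87), Rian at 13.4 (next 2.08) and Peg3 at 6.49 (next 1.64).

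The control blood library V2, used only in the alternatives with all 12 blood libraries or with V2 kept, held 28 of the 35 imprinted genes above all 11 other blood libraries. H19 had 220 CPM there (highest other library 20.4), Peg3 182 CPM (7.53), Igf2 92.2 CPM (17.6) and Dlk1 22.7 CPM (0.325). The same library had 4179 CPM on meninges and fibroblast markers and 81.6 CPM on neuron markers.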

How the results depend on the processing

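No paired analysis was possible because the labels give no replicate numbers that groups share and do not say which libraries come from 1 litter or animal. Leaving out single libraries gave 5 to 12 imprinted genes with an unadjusted p under 0.05 in cortex, 0 to 3 in blood, 3 to 7 and 1 to 5 for the nPM-by-sex terms in cortex and blood, 9 to 11 in females, 2 to 7 in males and 13 to 16 between tissues. After adjustment the ranges were 1 to 5 in females and 12 to 16 between tissues, and 0 elsewhere, and no named gene changed sign.

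When 1 count in a single library sufficed for testing, more genes passed. After adjustment these were 2 in cortex, Mirg and Nnat, where 185 of all 32461 genes passed. In blood 1 passed, Meg3, where 28 of 22409 genes did. Meg3 had 1025 counts in the blood library V5 and 2 to 62 in the others used. For the nPM-by-sex terms 3 passed in cortex (379 of 32461 genes) and 2 in blood (81 of 22409). In females 8 passed (1280 of 30569 genes), in males 1 (155 of 30557) and between tissues 26 (16131 of 31272). Unadjusted, the counts were 6 in blood (2.58% of all genes), 8 for the blood nPM-by-sex term (6.84%), 9 in males (5.16%) and 27 between tissues (54.7%). With at least 10 counts in every library 1 passed unadjusted in blood (2.56% of all genes) and 1 for the blood nPM-by-sex term (12.1%). Between tissues 7 passed (89.4% of all genes), and 7 after adjustment (4960 of 5560 genes). There Trappc9 turned to 0.0942 and Peg10 to 0.18. With lane in the model 1 passed in blood. With all 12 blood libraries 0 passed for nPM, Impact turned to -0.0349, and 7 passed for the nPM-by-sex term. limma voom and DESeq2 each gave 1 for that term. On library totals no member of blood had an exact permutation p under 0.05 (0 against 1).

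With the intronic percentage in the model, an alternative chosen after seeing the data, 2 passed for the cortex nPM-by-sex term (6.04% of all genes). Meg3 was at -0.0553 there. In females 5 passed (4.86% of all genes) and 0 after adjustment, in a fit that could not tell the percentage from nPM. There Ndn was at -0.0222, Kcnq1ot1 at 0.16 and Cdkn1c at -0.16. Between tissues, library totals gave H19 0.42, Gnas 1.07, Igf2 3.47, Trappc9 3.84 and Peg10 3.91, and totals without globin genes Igf2 1.48, Trappc9 1.90 and Peg10 1.99. Without 2 libraries, r was 0.690 for Meg3 with Rian, 0.561 for Rian with Mirg, -0.356 for Sgce with Peg10 and -0.166 for Ndn with Magel2. The causes of these changes were not tested.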
